A study of Rattus norvegicus with 18 samples.

Results

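Complement is a chain of plasma and cell-surface proteins that marks targets for removal. In the classical pathway the protease C1r activates C1s, which cleaves C4 and C2. In the alternative pathway factor B (Cfb) is the protease of the convertase, and both routes cleave C3, the central component. Regulators hold the chain in check: C1 inhibitor (Serping1) blocks C1r and C1s, decay-accelerating factor (Cd55) takes convertases apart on cell membranes, and factor I (Cfi) cuts C3b and C4b so that they can form no convertase. The liver makes most of the circulating proteins, and kidney tubule cells also make some, C3 among them.

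The transcripts of 8 complement genes, Cfi, C3, C2, Cfb, C1s, C1r, Serping1 and Cd55, were examined in rat kidney. Members were all probe sets that the platform annotation gives to these genes, which came to 11 of 31042 on the array. Cfi, C3, C1s, C1r and Serping1 had 1 probe set each and Cd55 had 2. The other 4 were annotated to both Cfb and C2, neighbouring genes on chromosome 20, so neither gene had a value of its own and these probe sets are written Cfb/C2. Of the 11 probe sets, 8 were bright enough to be tested, and 1 of Cd55 and 2 of Cfb/C2 were too dim.

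Whole kidneys of 18 rats were measured on 1 Affymetrix Rat Genome 230 2.0 array each, 9 from the S.SHR(2) congenic strain and 9 from the Dahl salt-sensitive strain (Dahl S, SS/Jr). Per the labels, S.SHR(2) derives from SS/Jr and SHR/NHsd, the spontaneously hypertensive rat. Its name and the series title place the SHR segment on chromosome 2 in a strain called protective for the kidney, and the bounds of the segment are not given in the labels. Males of 4, 12 and 20 weeks are named in the series' design, but the labels give age, sex and a diet of 0.3% NaCl for only 2 rats, both male Dahl S. By accession number the arrays fall into 3 runs of 6, each with 3 S.SHR(2) and 3 Dahl S rats, called here deposit blocks 1, 2 and 3. The rat labelled 4 weeks is in block 1 and the one labelled 12 weeks is in block 2. The labels do not say what a block is, so block, age, array handling and any batch cannot be told apart, and no age was read from a block.

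Markers of the labelled tissue differed widely in brightness. Over all rats, uromodulin (Umod) lay between 5258 and 7695 intensity units and the proximal tubule phosphate transporter Slc34a1 between 4672 and 9493 units. On the same list Nphs1 lay between 72.9 and 124.5 units, Podxl between 282.5 and 626.4 units and Slc12a3 between 316.4 and 828.8 units. Of the hepatocyte markers, albumin (Alb) lay between 1.9 and 39.0 units and Apoa1 between 0.6 and 23.9 units, both below the brightness needed for testing, while on the same list Apoc3 lay between 331.7 and 506.5 units and Cyp2e1 between 1838 and 5013.5 units. The ratio of the 3′ to the 5′ GAPDH probe sets, a sign of RNA integrity, ran from 1.27 to 2.51 in S.SHR(2) and from 1.19 to 2.04 in Dahl S, with the highest arrays S.SHR(2) replicate 1 and Dahl S replicate 5. The number of arrays limits the precision. In whole kidney, fewer cells of a type and less RNA per cell cannot be told apart.

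The promoters of C3 and C1r, both higher in block 3 than in block 1, are shown because RefSeq windows before their start sites lie outside the annotated genes. Of the 8 members, 4 matched the RefSeq promoter table of build GRCr8, and 2 of those windows began inside the annotated gene and are not shown. The 250 bases before the start of C3 (chr9:2201340-2201589, minus strand) and of C1r (chr4:159098763-159099012, plus strand) read 5′ to 3′ as follows, with capitals marking the one motif match found.
C3: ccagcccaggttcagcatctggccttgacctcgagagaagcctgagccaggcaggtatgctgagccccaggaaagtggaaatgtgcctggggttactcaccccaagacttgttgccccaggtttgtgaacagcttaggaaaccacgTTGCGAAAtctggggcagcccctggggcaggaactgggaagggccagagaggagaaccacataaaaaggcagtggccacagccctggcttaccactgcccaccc
C1r: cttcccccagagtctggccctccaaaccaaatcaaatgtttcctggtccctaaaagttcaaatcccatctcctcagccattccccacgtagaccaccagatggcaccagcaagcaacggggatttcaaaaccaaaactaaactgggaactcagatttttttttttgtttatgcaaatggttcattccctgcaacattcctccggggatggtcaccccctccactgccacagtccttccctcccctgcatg

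The letters in capitals, TTGCGAAA, match the C/EBP motif TTGCGNAA and begin 104 bases before the start of C3. C/EBP factors are known as activators of acute-phase genes in liver. The motif occurs on either strand in 0.729% of 33465 rat promoters of the same length. The other 5 motifs searched on both strands had no match in these 2 windows. They were TATAAA for the TATA box, held by 12.9% of promoters, the NF-kappaB motif by 1.3%, TTCNNNGAA for STAT by 7.67%, TGANTCA for AP-1 by 6.34%, and the interferon-stimulated response element by 3.41%. A match is a run of letters and not a measured binding site.

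The first question was which complement transcripts differed between the kidneys of the 2 strains. Without deposit block in the fit none of the 8 member probe sets passed the test, where 0.123% of all probe sets did. With block taken into account, Cfi was lower in S.SHR(2) and was the 1 of 8 that passed, where 0.494% of all did. Its call was lost in 9 of 18 fits that each left out 1 rat. Cfi lies on chromosome 2, and the 7 other tested probe sets belong to genes on other chromosomes.

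Cfi in S.SHR(2) read 14.1, 45.5 and 44.2 units in block 1, 55.6, 59.4 and 41.1 units in block 2, and 51.0, 98.0 and 61.4 units in block 3. In Dahl S it read 29.4, 58.2 and 46.0 units in block 1, 75.4, 129.5 and 77.0 units in block 2, and 268.9, 216.0 and 197.5 units in block 3. The strains overlapped in block 1, whereas every S.SHR(2) rat lay below every Dahl S rat of the same block in blocks 2 and 3. Non-overlap in the lower direction in both of those blocks occurred in 0.843% of the 18625 probe sets tested. In block means, S.SHR(2) had 34.6 ± 17.8, 52.0 ± 9.7 and 70.1 ± 24.7 units against 44.5 ± 14.5, 94.0 ± 30.8 and 227 ± 37.1 units in Dahl S (blocks 1, 2 and 3, SD, n = 3 each).

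**Figure D1:**
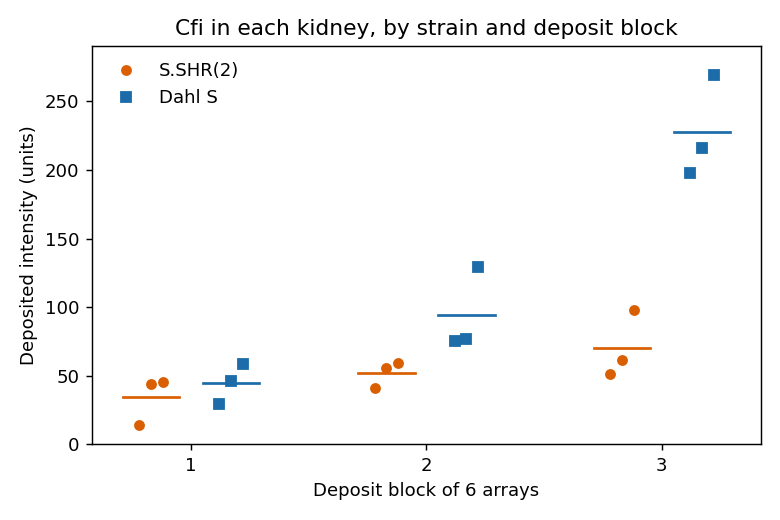
Deposited intensity of Cfi (vertical axis, linear units) in each of 18 kidneys by deposit block (horizontal axis), with S.SHR(2) as circles, Dahl S as squares and lines at the means of 3 rats. In block 3 the Dahl S kidneys lie at 197.5 units or above and the S.SHR(2) kidneys at 98.0 units or below, while the strains overlap in block 1.

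Over all 9 rats a strain, Cfi averaged 52.3 ± 22.2 units in S.SHR(2) and 122 ± 85.7 units in Dahl S (SD). The difference, S.SHR(2) minus Dahl S, was -0.81 ± 0.32 (SE) on the log2(intensity + 16) scale, with an unadjusted p = 0.0201 and a limma adjusted p = 0.9995 when block was left out. That test called 23 probe sets, or 0.123% of all tested. With block as a covariate the same difference had an SE of 0.173, a 95% interval of -1.16 to -0.45 and a limma adjusted p = 0.0272, and it corresponds to a 1.75-fold lower value in S.SHR(2). That fit called 92 probe sets, 0.494% of all tested, and 0.317% were called lower.

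The call of Cfi with block as a covariate was sensitive to single rats. Leaving out each of the 18 rats in turn kept the difference between -0.90 and -0.72, but the adjusted p ran from 0.0068 to 0.0765 and was above 0.05 in 9 of the 18 fits. The call was lost without S.SHR(2) replicate 1, 6, 7 or 9 and without Dahl S replicate 2, 5, 7, 8 or 9. Without the 2 arrays of highest GAPDH ratio the difference was -0.68 (adjusted p = 0.127).

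Within blocks, the Cfi difference was -0.30 in block 1 (limma adjusted p = 0.692), -0.69 in block 2 (unadjusted p = 0.0137, adjusted p = 0.9997) and -1.43 in block 3 (adjusted p = 0.0146), each with an SE of 0.257. The SE is the same because these contrasts share an estimate of the spread over all 18 rats. The block 3 value is 2.69-fold lower in S.SHR(2), in a contrast that called 0.338% of probe sets, where those within blocks 1 and 2 called 0.161% and 0.123%. It lost the call without S.SHR(2) replicate 7 (adjusted p = 0.116), Dahl S replicate 7 (0.130) or Dahl S replicate 8 (0.0757), and the difference stayed between -1.64 and -1.28 over the fits. The test of whether the strain difference itself differed between blocks gave an unadjusted p = 0.0172 for Cfi and an adjusted p = 0.732, so a change of the difference from block to block was not shown. That test called 1 probe set, 0.00537% of all tested, and it was no member.

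C3, the component that all routes converge on, overlapped between the strains in blocks 1 and 2. In S.SHR(2) it read 111, 107 and 75.8 units in block 1, 209, 232 and 181 units in block 2, and 192, 282 and 199 units in block 3. In Dahl S it read 101, 85.6 and 142 units in block 1, 184, 242 and 175 units in block 2, and 332, 327 and 283 units in block 3. In block 3 the highest S.SHR(2) rat, at 281.7 units, lay just under the lowest Dahl S rat, at 283.3 units, and 8.46% of all probe sets did not overlap in that direction in that block. The difference within block 3 was -0.46 ± 0.18 (SE, limma adjusted p = 0.361), and over all rats with block as a covariate it was -0.17 ± 0.109 (adjusted p = 0.656), so neither passed.

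Serping1 averaged 1254 ± 497 units in S.SHR(2) and 1348 ± 427 units in Dahl S (SD, n = 9 each). With block as a covariate the difference was -0.19 ± 0.0883 (SE), with a 95% interval of -0.37 to -0.01, an unadjusted p = 0.0425 and a limma adjusted p = 0.517. It therefore missed the threshold over all probe sets. Within blocks 1, 2 and 3 the differences were -0.35, -0.07 and -0.15.

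Cd55 probe set 1387951_at averaged 98.3 ± 50.6 units in S.SHR(2) and 97.0 ± 31.4 units in Dahl S (SD, n = 9 each), a difference of -0.02 on the log2 scale with its 95% interval between -0.47 and 0.44. In block 3 it read 56.4, 37.7 and 55.4 units in S.SHR(2) against 65.3, 82.0 and 72.7 units in Dahl S. Those 2 sets of values did not overlap, as held in the lower direction for 8.46% of all probe sets in that block, and the limma difference of -0.32 had an unadjusted p = 0.167.

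The initiating proteases of the classical pathway showed no strain difference that passed. C1r averaged 353 ± 53.1 units in S.SHR(2) and 384 ± 77.8 units in Dahl S, and C1s averaged 610 ± 163 units in S.SHR(2) and 651 ± 210 units in Dahl S (SD, n = 9 each). The log2 differences were -0.11 for C1r and -0.09 for C1s, with limma adjusted p = 0.9995 for both. In block 3 they were -0.32 for C1r (unadjusted p = 0.0286) and -0.29 for C1s (unadjusted p = 0.068).

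The Cfb/C2 probe sets were dim. Probe set 1383391_a_at ran from 32.4 to 92.4 units with a median of 39.3 units in S.SHR(2), and from 27.1 to 92.9 units with a median of 52.7 units in Dahl S. Probe set 1389470_at ran from 20.4 to 56.1 units with a median of 42.6 units in S.SHR(2), and from 26.9 to 54.2 units with a median of 46.5 units in Dahl S. Their strain differences were -0.05 and -0.03, and both strains overlapped widely. Within block 1 the second probe set differed by -0.42 (unadjusted p = 0.0344), and within block 2 by 0.29, and neither passed after adjustment.

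Across the 8 tested probe sets all strain differences were below 0, as were 48.5% of all probe sets tested, and their median was -0.10 against 0.00 for all. In block 3, 7 of the 8 were below 0 with a median of -0.30, against 47.8% and a median of 0.01 for all. In block 2 the median of the 8 was 0.08. These are descriptions of 8 probe sets measured in the same rats, and apart from Cfi none was called in any strain contrast.

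**Figure D2:**
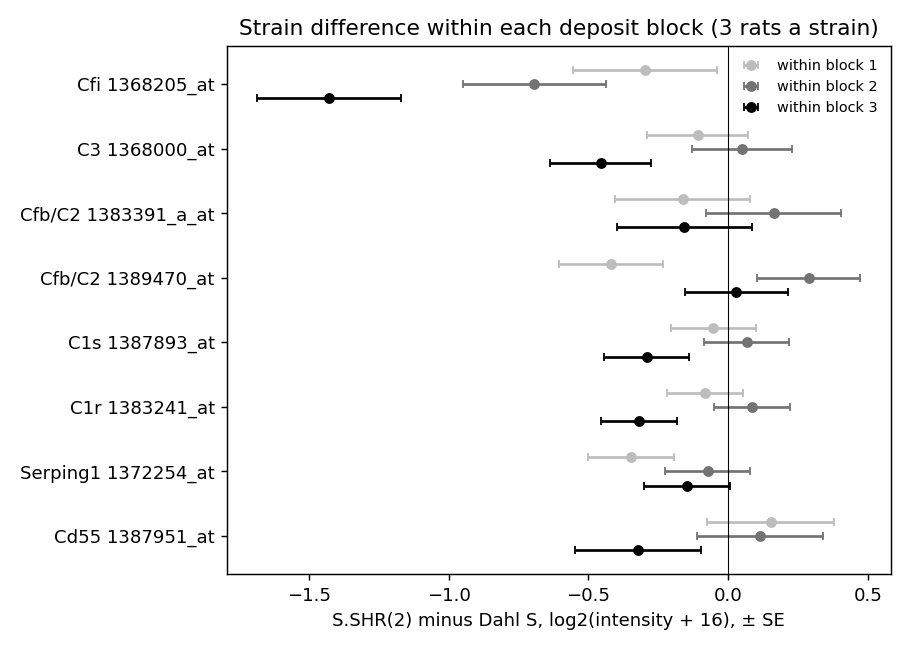
Strain difference, S.SHR(2) minus Dahl S, of the 8 tested probe sets within each deposit block (horizontal axis, log2 scale; points are limma estimates from 3 rats a strain and bars are ± SE). Cfi has the values -0.30, -0.69 and -1.43 in blocks 1, 2 and 3, and the other probe sets lie between -0.46 and 0.29.

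The 3 dim probe sets were not tested and are given as values. Cd55 probe set 1370406_a_at lay between 15.4 and 37.0 units in S.SHR(2) and between 19.8 and 50.6 units in Dahl S. Cfb/C2 probe set 1383392_at lay between 16.5 and 54.2 units in S.SHR(2) and between 3.3 and 74.1 units in Dahl S. Cfb/C2 probe set 1393219_at lay between 2.5 and 37.2 units in S.SHR(2), and in Dahl S between 4.7 and 22.6 units in blocks 1 and 2 together and at 56.6, 46.0 and 47.4 units in block 3. The log2 differences between block 3 and block 1 were 0.08, 0.86 and 1.02 in that order, and the dimness leaves them without a test.

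The second question was how the members varied over the deposit blocks with strain held in the fit. Of the 8 probe sets, 7 differed between blocks, in a test that called 50.1% of all probe sets. The exception was Cfb/C2 1389470_at (limma adjusted p = 0.178). Between block 3 and block 1, 6 were higher and Cd55 was lower, where 20.7% of all probe sets were called higher and 20.4% lower. A count of 7 of 8 is to be read against that share, since the blocks differed across much of the array.

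Cfi was 1.47 ± 0.212 higher in block 3 than in block 1 (SE, log2 scale, limma adjusted p = 7.1e-06). Its means over blocks 1, 2 and 3 were 34.6, 52.0 and 70.1 units in S.SHR(2) and 44.5, 94.0 and 227 units in Dahl S. C3 was 1.24 ± 0.134 higher in block 3 than in block 1 (adjusted p = 1.1e-07). Its means were 98.0, 208 and 224 units in S.SHR(2) and 110, 201 and 314 units in Dahl S over blocks 1, 2 and 3.

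Serping1 read 564, 580 and 777 units in block 1, 1398, 1529 and 1444 units in block 2, and 1544, 2006 and 1444 units in block 3 of S.SHR(2). In Dahl S it read 775, 631 and 1046 units in block 1, 1504, 1492 and 1588 units in block 2, and 1766, 1817 and 1517 units in block 3. All 6 rats of block 1 lay below all 12 rats of the later blocks. Such a gap in the higher direction held for 4.54% of all probe sets between blocks 2 and 1 and for 8.48% between blocks 3 and 1. The difference was 1.04 between blocks 2 and 1 (limma adjusted p = 3.0e-07), 1.20 ± 0.108 between blocks 3 and 1 (SE, adjusted p = 6.9e-09), and 0.16 between blocks 3 and 2 (adjusted p = 0.27).

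C1s and C1r, whose genes both lie on chromosome 4, were also higher in block 3. C1s read 494, 420 and 399 units in block 1, 677, 560 and 641 units in block 2, and 661, 923 and 715 units in block 3 of S.SHR(2), against 421, 369 and 585 units, 510, 697 and 601 units, and 815, 995.9 and 868 units in Dahl S. Its difference between blocks 3 and 1 was 0.86 ± 0.11 (SE, limma adjusted p = 1.5e-06). All 6 rats of block 3 were above all 6 of block 1, as held for 8.48% of all probe sets.

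C1r read 323, 302 and 340 units in block 1, 366, 322 and 365 units in block 2, and 333, 484 and 339 units in block 3 of S.SHR(2). In Dahl S it read 338, 313 and 372 units in block 1, 284, 404 and 322 units in block 2, and 495, 493 and 436 units in block 3. Its difference of 0.33 ± 0.101 (SE, limma adjusted p = 0.0129) was the smallest of those called, and in S.SHR(2) the values of block 3 other than replicate 8 lay within the range of blocks 1 and 2. Without that rat the block test of C1r no longer passed (adjusted p = 0.0601), and neither did it without Dahl S replicate 7 (0.0583) or 8 (0.059).

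Cd55, the membrane-bound regulator, went the other way. Probe set 1387951_at read 122, 119 and 194 units in block 1, 135, 108 and 57.5 units in block 2, and 56.4, 37.7 and 55.4 units in block 3 of S.SHR(2), against 95.7, 134 and 162 units, 84.9, 82.0 and 93.7 units, and 65.3, 82.0 and 72.7 units in Dahl S. All 6 rats of block 3 lay below all 6 of block 1, as held for 9.39% of all probe sets, and the difference was -0.95 ± 0.163 (SE, limma adjusted p = 6.5e-05). Cfb/C2 1383391_a_at was 0.62 ± 0.168 higher in block 3 than in block 1 (SE, adjusted p = 0.0047), with wide overlap between the blocks.

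**Figure D3:**
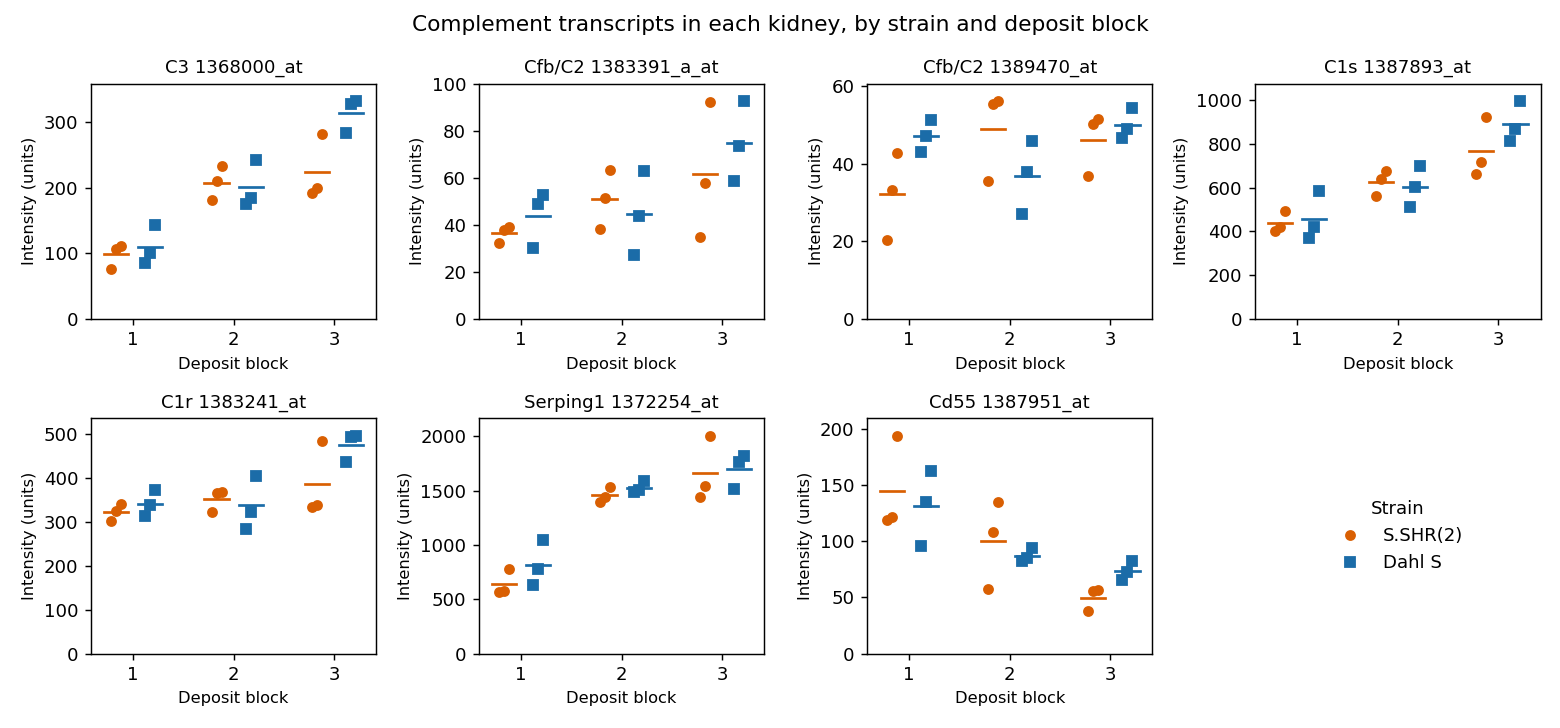
Deposited intensity (vertical axes, linear units) of the 7 other tested probe sets in each of 18 kidneys by deposit block (horizontal axes), with S.SHR(2) as circles, Dahl S as squares and lines at the means of 3 rats. Serping1 lies at 1046 units or below in block 1 and at 1398 units or above in blocks 2 and 3, and Cd55 is lowest in block 3.

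The steps between successive blocks were not alike. From block 1 to block 2, C3, Cfi, Serping1 and C1s were higher and Cd55 was lower, where 9.93% of all probe sets were called higher and 9.22% lower. From block 2 to block 3, Cfi (0.77, limma adjusted p = 0.0069), C1s (0.42, adjusted p = 0.0051) and C1r (0.28, adjusted p = 0.0332) were higher and Cd55 (-0.46, adjusted p = 0.0328) was lower, where 17.7% of all were called higher and 16.9% lower. For C3 that step was 0.34 and missed the threshold (adjusted p = 0.0551).

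Single rats stood high across members. Dahl S replicate 8 was among the 3 highest of the 18 rats for 6 of the 8 tested probe sets, Dahl S replicate 7 for 5 and Dahl S replicate 9 for 4. In the congenic strain, S.SHR(2) replicate 8 was among the 3 highest for 4. All of these rats are in block 3, and 6 of the 8 probe sets were called higher in block 3 than in block 1. The counts in part restate that block difference, and such ranks were not taken over all probe sets.

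Other genes of the pathway were taken from lists of components, regulators and receptors. Of 19 other components listed, 9 could be tested, and none was called for strain in a fit that called 0.123% of all probe sets. Mbl1, a lectin that starts the lectin pathway, was the 1 component of 9 called between blocks 3 and 1 (1.52 ± 0.209, SE, limma adjusted p = 3.7e-06). In that contrast 20.7% of all probe sets were called higher and 20.4% lower. The lectin pathway protease Masp2 was the component of smallest strain p (-0.24, unadjusted p = 0.0378). Masp1, Colec11, C5, C8b, C8g, C9 and properdin (Cfp) lay between -0.15 and 0.30 for blocks 3 and 1, and the median of the 9 was 0.09, against 0.74 for the 8 member probe sets and 0.01 for all probe sets tested.

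Of 14 other regulators listed, 4 were tested and all 4 differed between blocks, in the test that called 50.1% of all probe sets, while none was called for strain. Clusterin (Clu), which hinders the terminal complex, was 1.93 ± 0.108 higher in block 3 than in block 1 (SE, limma adjusted p = 3.0e-12). Cd59b, which encodes a membrane inhibitor of the terminal complex, was 0.42 higher, the carboxypeptidase N subunit Cpn1 was 0.43 lower (-0.43), and Cr1l had -0.14 without passing in that contrast. With block as a covariate the strain difference of Clu was -0.35 (adjusted p = 0.0917). Of 8 receptors listed, 3 were tested and none was called for strain. Itgax and Itgb2, which form complement receptor 4, were 0.84 and 0.88 higher in block 3 than in block 1, and C5ar1 had 0.08. The first 2 were called in that contrast, where 20.7% of all probe sets were called higher.

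**Figure D4:**
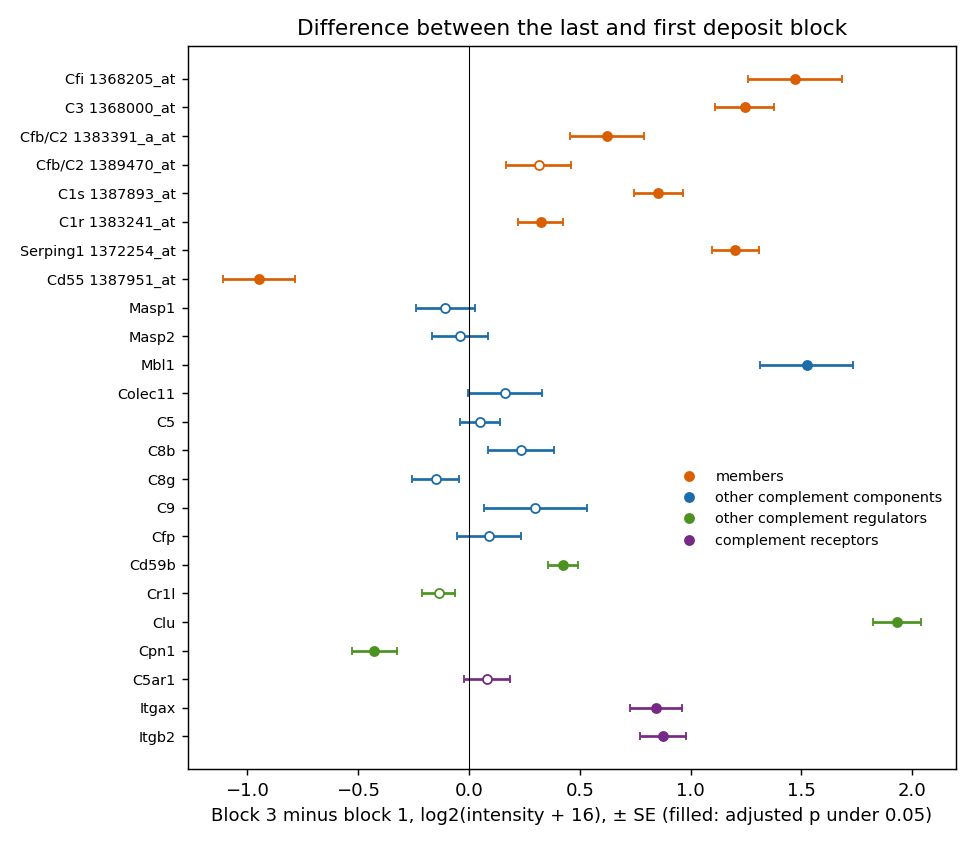
Difference between deposit blocks 3 and 1 (horizontal axis, log2 scale; points are limma estimates with ± SE, filled where the adjusted p is under 0.05) for the 8 member probe sets and the other tested complement genes by list. Cfi, C3 and Serping1 lie above 1 with Mbl1 and Clu, Cd55 lies at -0.95, and most other components lie near 0.

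Cfi is number 604 of the 691 tested genes of chromosome 2 in the gene order of GRCr8. Of its 4 nearest tested genes on either side, Pla2g12a, a secreted phospholipase A2 and the next gene along, was higher in S.SHR(2) by 1.14 ± 0.0856 (SE, limma adjusted p = 1.7e-08 with block as a covariate). Its differences within blocks 1, 2 and 3 were 1.16, 1.17 and 1.09. Enpep, the aminopeptidase A that degrades angiotensin II, was higher by 0.23 ± 0.0502 (adjusted p = 0.0344). Gar1 had 0.30 (adjusted p = 0.122), and Elovl6, Egf, Casp6, Sec24b and Ostc lay between -0.05 and 0.15 with adjusted p values of 0.647 or more. Cfi was thus the 1 called gene of the 9 that was lower in S.SHR(2).

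**Figure D5:**
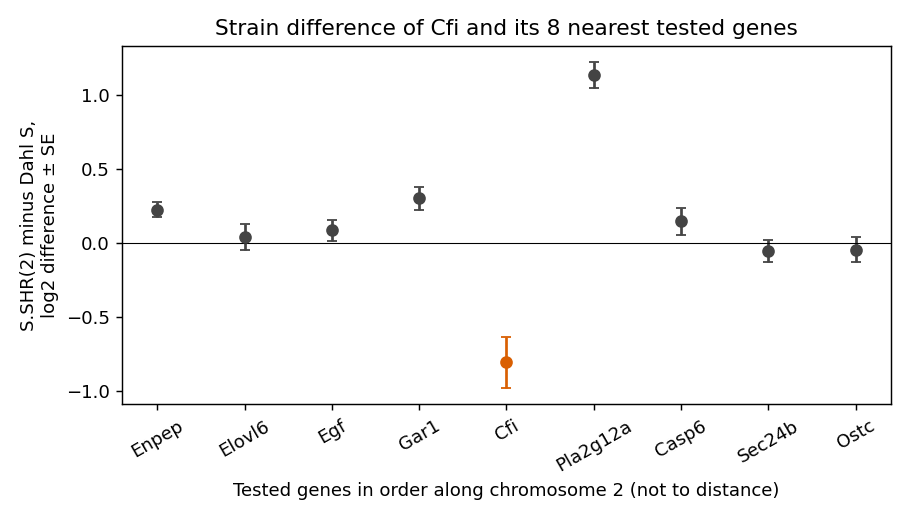
Strain difference, S.SHR(2) minus Dahl S, with deposit block as a covariate (vertical axis, log2 scale, limma estimate ± SE, 9 rats a strain) for Cfi and its 8 nearest tested genes in chromosome order (horizontal axis, not to distance). Pla2g12a, at 1.14, and Cfi, at -0.81, are next to each other on opposite sides of 0.

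The genes whose pattern over the 18 rats was most like that of Cfi were ranked by Pearson's r after each strain's mean was subtracted, over 10483 genes, and the values are descriptions because all genes share the same arrays and blocks. They were Tifa (0.94), PCOLCE2 (0.932), Evi2b (0.921), Clu (0.917) and Tnfrsf12a (0.916), where 1.45% of genes exceeded 0.8. With block means subtracted as well, the values were 0.726, 0.752, 0.552, 0.712 and 0.5. Of these, Clu is a complement regulator, as described above, and Tifa is a chromosome 2 gene whose strain difference was 0.03. For C3 they were Ctss and Fcer1g (0.959 each), Lyz2 (0.953), Spn (0.948) and Mpeg1 (0.947), where 2.98% of genes exceeded 0.8, and with block means subtracted they were 0.691, 0.769, 0.723, 0.562 and 0.526.

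Markers of other cells and of tubular injury moved with block and in part with strain. The 9 tested macrophage markers had a summed intensity of 2044 to 2672 units in block 1 and 3605 to 4978 units in block 3 of S.SHR(2), against 2258 to 2941 units and 4510 to 5133 units in Dahl S. These sums are weighted to the brightest marker, Lyz2, which lay between 1281.6 and 2916.6 units over all rats. Of the 9, 7 were higher in block 3 than in block 1, where 20.7% of all probe sets were, with a median of 0.86. None of the 9 was called for strain, where 0.123% of all probe sets were, and the macrophage marker Cd163 lay between 0.4 and 15.6 units over all rats. The 3 tested lymphocyte markers, Cd3g, Cd4 and Ptprc, summed to 246 to 301 units in S.SHR(2) and 336 to 451 units in Dahl S within block 3. In block 1 they summed to 104 to 116 units in S.SHR(2) and 78.9 to 190 units in Dahl S. These sums are weighted to Ptprc, which lay between 34.6 and 272.7 units over all rats. None of the 3 was called for strain within block 3, where 0.338% of all probe sets were. Cd3e, Cd3d, Cd2, Ms4a1, Cd79b and Cd8a of the same list were too dim to be tested.

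The 9 tested tubular injury markers summed to 6339 to 8926 units in S.SHR(2) and 9982 to 11627 units in Dahl S within block 3, without overlap. Among single probe sets, 8.46% did not overlap in that direction in that block. Over all rats none of the 9 was called for strain, without block (0.123% of all called) or with it (0.494%). The sum is weighted to the brightest marker, Spp1, which lay between 850.1 and 6753.1 units over all rats. None of the others exceeded the 1262 units of Vim. All 9 differed between blocks, where 50.1% of all probe sets did, and Havcr1, the kidney injury molecule, was 3.89 higher in block 3 than in block 1. Within block 3 the median strain difference of the 9 was -0.55, with 8 of 9 below 0, where 47.8% of all probe sets were. Ceruloplasmin (Cp) was the 1 of 9 called there (-0.77, limma adjusted p = 0.010), where 0.338% of all probe sets were called. The 8 tested fibroblast markers had a median of -0.45 between blocks 3 and 1. Col3a1 was the 1 of 8 called for strain within block 3 (-0.53, adjusted p = 0.0426), in the contrast that called 0.338% of all. Of the hepatocyte markers 3 were tested, Apoc3, Ttr and Cyp2e1, and none was called for strain, where 0.123% of all probe sets were. The 9 tested kidney tubule and glomerulus markers had lower sums in block 3 than in block 1. In S.SHR(2) they summed to 28897 to 29916 units in block 1 and 21476 to 22819 units in block 3. In Dahl S they summed to 27523 to 29818.5 units in block 1 and 19992 to 22612 units in block 3. These sums are weighted to bright markers such as Slc34a1 and Umod. The ratio of 3′ to 5′ beta-actin probe sets ran from 2.27 to 3.0 in S.SHR(2) and from 2.33 to 2.88 in Dahl S in block 3. In S.SHR(2) it ran from 3.11 to 6.83 in block 1 and from 3.45 to 4.67 in block 2. In Dahl S it ran from 2.22 to 3.94 in block 1 and from 3.14 to 5.88 in block 2. The median GAPDH ratio was instead highest in block 3, at 1.52 in S.SHR(2) and 1.53 in Dahl S. It was 1.41 and 1.40 in block 1 and 1.38 and 1.34 in block 2, in that order of strains. The part of these markers and ratios in the values of the complement genes was not tested.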

How the data were processed

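Kidney RNA of 18 rats was hybridised to 1 array each. The authors deposited linear intensities whose mean, trimmed by 2% at each end, was 150.046 to 150.054 on all arrays. The software behind them is not given in the sources consulted, and detection calls were not used. After 57 control probe sets were left out, values were taken as log2(intensity + 16) and quantile-normalized, since array medians spanned 0.235, and the dimmest 40% were dropped, which left 18625. Fold changes are on that scale and understate changes of dim genes. Levels and SDs are of the deposited intensities.

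Differences, S.SHR(2) minus Dahl S, were tested with limma 3.58.1 (R 4.3.3, lmFit and eBayes with an intensity trend, two-sided), adjusted by Benjamini-Hochberg over all 18625, and called where that p was under 0.05. All adjusted p values are limma's. Further fits added deposit block as a covariate, tested blocks by F test, and took strain within blocks. The contrasts within blocks came from a fit of all 18 rats grouped by strain and block, with a shared estimate of the spread. The fit was tested on simulated data. Rats were the replicates with 1 array each, so p values set a difference against a spread that mixes rats and array handling. Without block in the fit, that spread also holds the differences between blocks. The members and all gene lists were chosen with earlier results of these data known. Named genes were all member probe sets, called genes of the complement lists and those of smallest p, the 4 tested genes on each side of Cfi, the 5 most alike to Cfi and to C3, and up to 3 genes a marker list by strain p; Havcr1, Cp, Col3a1 and the markers given as levels were chosen after their values were seen. For non-members the brightest probe set annotated to that gene alone was used. Alternatives were pseudocounts of 1 and 64, no or a 60% filter, other scaling, eBayes without trend or robust, array weights, an adjusted p of 0.01 (for the strain count) and each rat left out. Figures were drawn with matplotlib 3.10.9.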

Additional observations from a re-analysis of the deposited data

Results flagged for a closer look

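C1r in S.SHR(2) replicate 8 read 483.5 units, whereas the next S.SHR(2) rat read 366.4 units and the lowest 301.8 units, a gap of 0.644 of the range of 9 rats. The same rat had the highest C3, C1s, Serping1 and Cfi of its strain.

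Cfb/C2 probe set 1383392_at in Dahl S replicate 7 read 74.1 units, against 47 units for the next and 32 units for the lowest of the 6 rats of block 3, a gap of 0.644 of their range. This probe set was too dim to be tested. Chance marks about 1 in 20 groups as holding such a rat, and these were 2 of 55 checks.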

How the results depend on the processing

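No paired analysis was possible because replicate numbers follow accession order and pair nothing. The 8 strain differences and the 7 block calls kept direction and side of the threshold under the alternatives except as follows, and the cause was not tested where none is given. The strain count of 23 became 41 with array weights and 92 with block as a covariate, where Cfi had -0.81 (adjusted p = 0.0272). The interaction count of 1 became 43 with array weights and 5 without the 2 arrays of highest GAPDH ratio, a setting chosen after seeing the data; it ran from 1 to 3 with each rat left out. With block as a covariate, Cfi missed the threshold with no filter (-0.81, adjusted p = 0.0727), with no trend (-0.81, 0.0537) and without those 2 arrays (-0.68, 0.127). Over the 18 fits without 1 rat it lay between -0.90 and -0.72. Within block 3 Cfi had -1.61 with a pseudocount of 1 (0.0544) and -1.64 to -1.28 with a rat left out. Within block 1 it had 0.0331 without the 2 arrays and -0.49 to 0.0332 with a rat left out. The 60% filter removed Cfi and the Cfb/C2 probe sets 1383391_a_at and 1389470_at, so their results have no value under that setting. The strain difference of Cd55 was 0.0032 with a pseudocount of 64 and -0.14 to 0.086 with a rat left out; that of Cfb/C2 1389470_at was 0.0497 with array weights, 0.0354 without the 2 arrays and -0.0869 to 0.0518 with a rat left out; that of Cfb/C2 1383391_a_at was -0.15 to 0.0323 with a rat left out. The block difference of C1r ran from 0.28 to 0.38 with a rat left out and lost the call in 3 of the 18 fits. At an adjusted p of 0.01 the block calls of C1r (0.0189) and Cfb/C2 1383391_a_at (0.0107) and the Cfi strain calls with block as a covariate (0.0272) and within block 3 (0.0146) would be lost.

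Uncalled differences within blocks also crossed 0 when a rat was left out: in block 1 C1s (-0.19 to 0.13), C3 (-0.26 to 0.0764) and Cd55 (-0.0541 to 0.31); in block 2 C1r (-0.0219 to 0.21), C1s (-0.0474 to 0.17), C3 (-0.0362 to 0.17), Cd55 (-0.11 to 0.42) and Cfb/C2 1383391_a_at (-0.0439 to 0.36); in block 3 Cfb/C2 1383391_a_at (-0.42 to 0.0868) and 1389470_at (-0.0358 to 0.12). With arrays centred on medians, 4641 probe sets were higher and 3094 lower in block 3 than in block 1, against 3857 and 3801 in the analysis reported, and 7 were higher and 14 lower by strain, against 4 and 19; with block as a covariate 41 were higher and 45 lower, against 33 and 59. The mean over a gene's tested probe sets was not run, since no member had several that name it alone. Signal over background limits Cfb/C2, Cfi in block 1 and the 3 untested probe sets, for which no detection calls were used.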
